A study of Homo sapiens with 6 samples.

Results

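The genes described here encode 9 glycoproteins that carry O-glycans at the surface or in the lysosomal membrane of epithelial cells, namely MUC1, CD44, CD55, CD59, PODXL, LAMP1, LAMP2, ALCAM and BSG. They are listed by name for this role, with earlier results of these data known, and all 9 had a row among the 12703 genes of the count table. The PC3 cell line was established from a skeletal metastasis of a human prostate tumour. The 6 RNA sequencing libraries fall into a group labelled as GCNT1 overexpression (n = 3, GCNT1 delivered by lentivirus) and a group given the negative-control virus (n = 3), here called GCNT1 overexpressing cells and controls after their labels. No other treatment or time point distinguishes the groups, and both were made by lentiviral transduction. All 6 libraries come from cultured lines derived from PC3 alone, the promoter of the vector is not given in the sources used here, and the measurements are RNA levels that do not report protein or glycan.

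O-glycans of the mucin type are built on serine and threonine residues, starting with a GalNAc sugar that is extended by galactose to the core 1 structure. GCNT1 adds a GlcNAc branch to core 1 and so makes core 2, which can be extended with longer and often sialylated chains. Proteins differ in how many serines and threonines they offer: mucins and sialomucins hold them in dense stretches, CD55 holds them in a stalk above the membrane, and the lysosomal membrane proteins are known mainly for dense N-glycans, with an O-glycosylated hinge.

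The coding sequences show this difference between the 9 carriers. In each Ensembl canonical transcript of GENCODE 44, the stretch of 50 codons with most serine and threonine codons was located, and the stretches below are shown because they are the richest of the set, with CD59 as the contrast. They run 5′ to 3′ on the coding strand of hg38, and capitals mark serine and threonine codons.
PODXL: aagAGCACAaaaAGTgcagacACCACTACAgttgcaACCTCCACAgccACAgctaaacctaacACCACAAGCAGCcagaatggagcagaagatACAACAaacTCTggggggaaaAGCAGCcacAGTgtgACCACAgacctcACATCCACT
MUC1: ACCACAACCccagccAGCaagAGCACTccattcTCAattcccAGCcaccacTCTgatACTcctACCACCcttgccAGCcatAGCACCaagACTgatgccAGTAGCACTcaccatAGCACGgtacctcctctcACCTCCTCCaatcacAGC
CD55: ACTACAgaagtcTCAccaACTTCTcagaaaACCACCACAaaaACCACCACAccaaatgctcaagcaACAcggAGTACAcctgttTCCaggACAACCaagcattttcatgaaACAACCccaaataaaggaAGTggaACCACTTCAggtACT
CD44: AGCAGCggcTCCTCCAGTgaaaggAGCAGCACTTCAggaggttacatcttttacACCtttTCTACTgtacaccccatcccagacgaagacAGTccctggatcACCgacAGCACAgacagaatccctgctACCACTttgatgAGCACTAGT
CD59: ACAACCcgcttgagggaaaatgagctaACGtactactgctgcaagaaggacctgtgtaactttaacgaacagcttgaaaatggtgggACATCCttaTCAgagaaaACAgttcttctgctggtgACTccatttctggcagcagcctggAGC
The PODXL stretch covers codons 124 to 173 in exon 2 of 9 (chr7:131511015-131511164, minus strand) and the MUC1 stretch covers codons 202 to 251 in exon 3 of 8 (chr1:155188298-155188447, minus strand). The CD55 stretch covers codons 306 to 355 across exons 7 to 9 of 10 (chr1:207336755-207339401, plus strand, introns removed). The CD44 stretch covers codons 179 to 228 across exons 5 and 6 of 18 (chr11:35189933-35196762, plus strand, intron removed), and the CD59 stretch covers codons 76 to 125 in exon 4 of 4 (chr11:33710138-33710287, minus strand).

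PODXL and MUC1 each had 25 serine or threonine codons among the 50, CD55 had 24 and CD44 had 21. Over 19701 human coding sequences treated in the same way the median richest stretch held 12. Only 0.924% of these sequences had a stretch as rich as those of PODXL and MUC1, 1.32% one as rich as that of CD55 and 3.99% one as rich as that of CD44. LAMP2 with 16, LAMP1 with 15 and ALCAM with 14 lay nearer to the middle, BSG held 12, and CD59 held 9, which 86.9% of all coding sequences reach. The lysosomal proteins stood apart in a different feature: LAMP1 had 18 and LAMP2 had 16 motifs for N-glycosylation (asparagine, any residue but proline, then serine or threonine), against a median of 2 over all coding sequences, and 1.3% and 1.8% of those had as many. These counts describe the whole reference coding sequence, not the mature protein or which residues are glycosylated in PC3 cells.

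**Figure D1:**
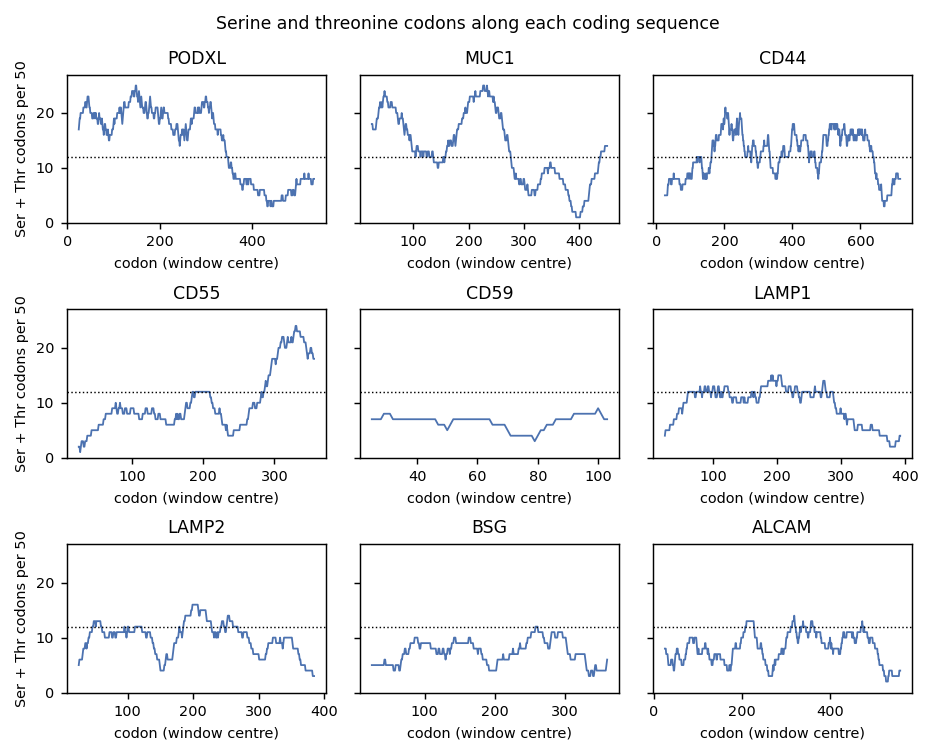
Serine and threonine codons in a sliding stretch of 50 codons (vertical axis, number of codons) along each of the 9 coding sequences (horizontal axis, codon position), with a dotted line at 12, the median richest stretch of all human coding sequences. MUC1, PODXL and CD55 rise to 24 or 25, CD44 reaches 21, and CD59 stays under the line.

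Total counts ran from 12125672 to 12755888 in controls and from 11392213 to 13825704 in GCNT1 overexpressing cells, so that 3 counts correspond to between 0.213 and 0.259 CPM (counts scaled to library size and TMM factors). GCNT1 itself had 9, 13 and 8 counts in controls and 13, 16 and 35 counts in overexpressing cells, which is 0.812 ± 0.202 and 1.59 ± 0.772 CPM (SD, n = 3) and a log2 fold change of 0.98 (SE 0.37, edgeR adjusted p = 0.0362). Overexpressing libraries 1 and 2, at 1.12 and 1.16 CPM, lay little above the highest control at 1.04 CPM, and library 3 was at 2.48 CPM. Whether reads from the GCNT1 insert were all counted on the gene is not given in the sources used here, so these counts are a weak check of the labels. The labels do not rest on them alone: the study also examined GCNT1 in its PC3 overexpressing cells by immunocytochemistry, sandwich ELISA and real-time PCR. Without overexpressing library 3 the GCNT1 log2 fold change was 0.49 (edgeR adjusted p = 0.269). Without control library 1 or 3 the edgeR adjusted p was 0.092 and 0.0944, and DESeq2 gave an adjusted p of 0.0821. The groups separated on the first principal component (89.3% of the variance). Of the epithelial markers, KRT8, KRT18 and KRT19 were abundant, with a summed level of all 5 markers of 822 to 869 CPM in controls and 626 to 710.4 CPM with overexpression, while CDH1 (E-cadherin) was at 3.59 and 1.1 CPM. Of the prostate luminal genes, KLK3, KLK2 and FOLH1 had no row and TMPRSS2 was at 4.2 and 1.75 CPM. Of the markers of other cell types, PTPRC, CD3E, LYZ, CDH5, VWF, DCN and PDGFRB had no row, CD68 was at 89.8 and 84.4 CPM, PECAM1 at 1.77 and 4.43 CPM, and COL1A1 at 14.6 and 8.55 CPM. The part of these shifts in the results below was not tested.

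Among the 9 carriers PODXL alone was called, at an adjusted p under 0.05 and an absolute log2 fold change of at least 0.58, the thresholds of the study. It was higher in GCNT1 overexpressing cells. Of all genes, 19.3% were called in either direction, 8.28% higher and 11.1% lower, so a count of 1 in 9 is not above this background. In bulk RNA, fewer cells that express a gene and less RNA per cell cannot be told apart. By the adjusted p alone, 5 carriers rose (PODXL, CD55, LAMP1, BSG and CD59) and none fell, against 57.6% of all genes in either direction, 28.3% higher and 29.3% lower. None of the 9 was lower at an unadjusted p under 0.05 by edgeR, limma-voom or DESeq2. The same 5 carriers had all 3 overexpressing libraries above all 3 controls, a pattern found in 30.9% of all genes, and none had the reverse, found in 31.6%. The median log2 fold change was 0.10 over the 9 carriers and 0.00 over all genes, and with library size in place of TMM factors these were 0.16 and 0.06.

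**Figure D2:**
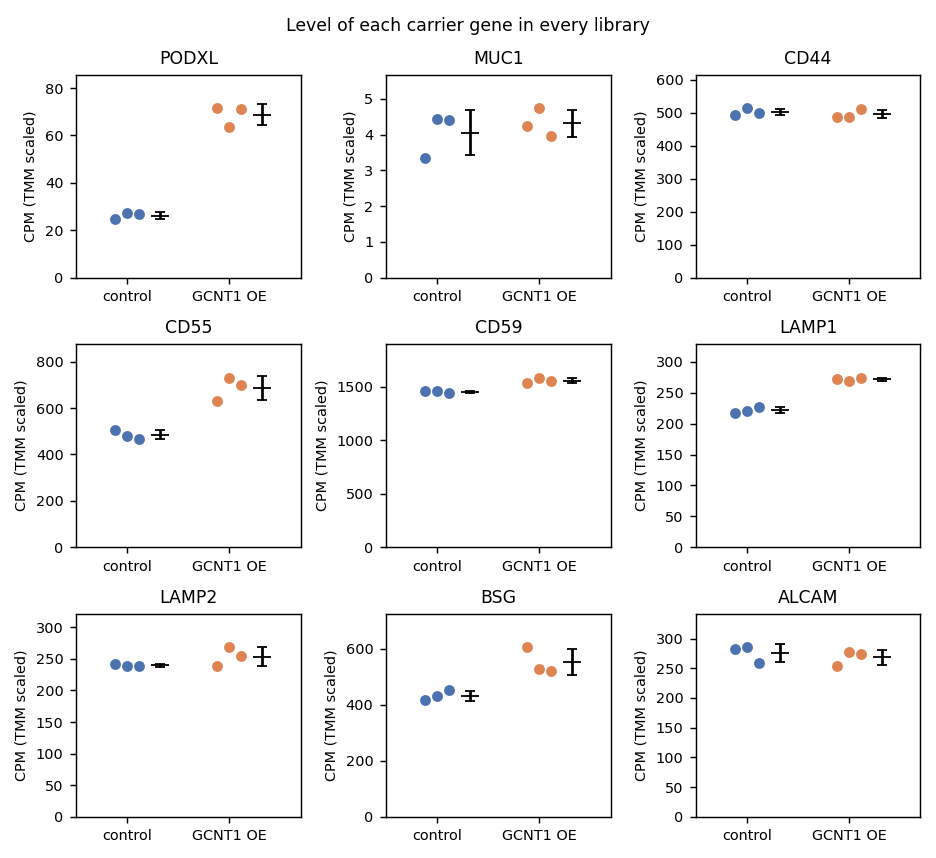
Level of each carrier (vertical axis, CPM, linear scale with its own range in each panel) in the 3 control and 3 GCNT1 overexpressing libraries, each point a library. PODXL moves from 24.6 to 27.1 CPM in controls to 63.6 to 71.4 CPM with overexpression, CD55, BSG, LAMP1 and CD59 separate by smaller steps, and MUC1, CD44, LAMP2 and ALCAM overlap.

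PODXL (Entrez 5420, chr7:131500262-131558217, minus strand) encodes podocalyxin, a sialomucin of the CD34 family that keeps apical membranes apart through its negative charge. In controls it was at 24.6, 27.1 and 26.8 CPM and in GCNT1 overexpressing cells at 71.4, 63.6 and 71.1 CPM. The groups did not overlap, and the lowest overexpressing library lay above the highest control by more than the whole range within either group. The means were 26.2 ± 1.41 and 68.7 ± 4.39 CPM (SD, n = 3), a 2.62-fold rise with a 95% confidence interval of 2.36 to 2.92 (log2 fold change 1.39, SE 0.07, edgeR adjusted p = 3.79e-09). The log2 fold change stayed between 1.35 and 1.45 under all 13 alternative settings. A processed pseudogene, RPL31P36, lies within PODXL on the opposite strand, and the sources used here do not say whether reads were counted by strand.

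MUC1 (Entrez 4582, chr1:155185824-155192916, minus strand), the transmembrane mucin of glandular epithelia, was the least abundant carrier. Its 42, 55 and 52 counts in controls were 3.34, 4.42 and 4.4 CPM, and its 49, 65 and 56 counts with overexpression were 4.23, 4.73 and 3.97 CPM. The groups overlapped, and the difference of 0.09 on the log2 scale had a 95% confidence interval from -0.26 to 0.45 (edgeR adjusted p = 0.653). Changes of either sign within that range are compatible with these counts. Another protein-coding locus overlaps MUC1 on the same strand, which makes the assignment of some reads uncertain. PODXL and MUC1 thus share an equally rich serine and threonine stretch and differ in level and in change: the PODXL to MUC1 ratio of CPM was 7.36, 6.15 and 6.1 in controls and 16.9, 13.4 and 17.9 with overexpression.

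Among other carriers of mucin-type O-glycans, 18 of 38 listed genes had a row, of which 1 was called higher and 5 lower, with a median log2 fold change of -0.15. CD24, a small GPI-anchored sialomucin, fell from 14.5 ± 1.15 to 1.77 ± 0.126 CPM (SD, n = 3, log2 fold change -3.02, edgeR adjusted p = 1.63e-09), but it shares sequence with copies elsewhere in the genome and its count is uncertain. The transmembrane mucin MUC13 rose from 9, 7 and 5 counts to 46, 59 and 37 counts (log2 fold change 2.64, edgeR adjusted p = 7.81e-06). MUC15 had the smallest called change, from 4.46 ± 1.01 to 2.76 ± 0.243 CPM (log2 fold change -0.70, edgeR adjusted p = 0.00718), and without control library 2 it was -0.52, below the fold threshold. CD164, the sialomucin endolyn, is named here after its values were seen because it is abundant: it fell from 517 ± 20.4 to 302 ± 12.2 CPM (log2 fold change -0.77, edgeR adjusted p = 2.34e-08). CD99, also picked after its values were seen, had 13, 132 and 4 counts in controls and 164, 65 and 7 with overexpression, so its libraries differed more within than between groups. The named carriers moved in both directions, PODXL and MUC13 up and CD24, CD164 and MUC15 down.

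CD44 (Entrez 960, chr11:35138882-35232402, plus strand) is the main receptor for hyaluronan, the large sugar polymer of the pericellular matrix, and its variant exons add O-glycosylation sites. It was at 494, 513 and 500.3 CPM in controls and at 488, 488 and 509.7 CPM with overexpression. The groups overlapped, and the fold of 0.986 had a 95% confidence interval of 0.926 to 1.05 (log2 fold change -0.02, SE 0.04, edgeR adjusted p = 0.701), which leaves room for only a small change in total CD44 RNA. Gene counts do not separate the CD44 splice forms, and a noncoding gene on the same strand and CD44-DT and CD44-AS1 on the opposite strand overlap the locus.

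Hyaluronan genes that were called included a synthase and a breakdown factor, both lower. Of 24 listed genes for hyaluronan synthesis, breakdown and binding and for CD44 shedding, 15 had a row, 2 were called higher and 3 lower, with a median log2 fold change of 0.00. HAS2, a hyaluronan synthase, fell from 403, 391 and 407 counts to 63, 82 and 86 counts (log2 fold change -2.47, edgeR adjusted p = 1.72e-10). The more abundant synthase HAS3 fell from 1288 ± 23 to 918 ± 37.9 CPM, below the fold threshold (log2 fold change -0.49, edgeR adjusted p = 7.58e-07). CEMIP, a protein needed for hyaluronan breakdown, had 423, 382 and 369 counts in controls and 1, 0 and 0 with overexpression, which is at least 138-fold lower against a floor of 3 counts per library. VCAN, the hyaluronan-binding proteoglycan versican, had 4 counts in every control and 30, 50 and 48 counts with overexpression (log2 fold change 3.28, edgeR adjusted p = 9.31e-07), and HMMR, an intracellular hyaluronan-binding protein of the mitotic spindle, had the smallest called change, from 136 ± 7.59 to 73.3 ± 2.12 CPM (log2 fold change -0.89). Of the proteases that shed CD44, ADAM10 fell by 0.25 on the log2 scale (edgeR adjusted p = 0.00587), ADAM17, named after its values were seen, fell by 0.34 (edgeR adjusted p = 0.00206) and the membrane-type matrix metalloproteinase MMP14 rose by 0.36 (edgeR adjusted p = 7.62e-05), all below the fold threshold.

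CD44 and podocalyxin are tied to the actin cortex through ezrin, radixin and moesin. Of 10 listed genes of this scaffold 9 had a row, and none was called by edgeR, limma-voom or DESeq2, or at an unadjusted p under 0.05 with the fold threshold, while 3 rose and 4 fell by the adjusted p alone. Ezrin (EZR) fell from 370.1 ± 12.8 to 266 ± 6.42 CPM (log2 fold change -0.48, edgeR adjusted p = 1.5e-06) and radixin (RDX) from 183 ± 8.88 to 128 ± 12.1 CPM (log2 fold change -0.52, edgeR adjusted p = 2.26e-05). Moesin (MSN), the most abundant of these, rose from 1014 ± 25.6 to 1132 ± 10.8 CPM (log2 fold change 0.16, edgeR adjusted p = 0.00394). NHERF1, an adaptor that links podocalyxin to ezrin, was at 82.6 ± 6.11 and 90.8 ± 7.1 CPM and its groups overlapped (edgeR adjusted p = 0.119).

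CD55 and CD59 are GPI-anchored proteins that protect cells from complement. CD55 (Entrez 1604, chr1:207321519-207386804, plus strand), or decay-accelerating factor, dissociates the C3 convertases and is held above the membrane by the serine and threonine rich stalk shown above. It was at 507, 481 and 467 CPM in controls and at 631, 730.1 and 701 CPM with overexpression, with no overlap. The 1.42-fold rise (95% confidence interval 1.3 to 1.54) passed the adjusted p but not the fold threshold (log2 fold change 0.50, SE 0.06, edgeR adjusted p = 6.13e-06).

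CD59 (Entrez 966, chr11:33703010-33736479, minus strand), or protectin, blocks the membrane attack complex and had the highest CPM of the 9. It was at 1459.5, 1461 and 1442 CPM in controls and at 1537, 1583 and 1552 CPM with overexpression. The groups did not overlap, but the difference was small, at 1.07-fold with a 95% confidence interval of 1.01 to 1.13 (log2 fold change 0.10, SE 0.04, edgeR adjusted p = 0.04). The adjusted p passed the threshold in 1 of 6 fits that each left out a library, and a fit that blocked on the replicate number gave 0.128 (edgeR adjusted p). A protein-coding locus overlaps CD59 on the same strand. The CD55 to CD59 ratio was 0.348, 0.329 and 0.324 in controls and 0.411, 0.461 and 0.452 with overexpression, a shift in which all overexpressing libraries lay above all controls.

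Of 21 listed complement genes 6 had a row, and 2 were called higher and none lower, with a median log2 fold change of 0.32 and 1 gene lower at an unadjusted p under 0.05 in edgeR, limma-voom and DESeq2. C1S, the serine protease that starts the classical pathway, rose from 25.6 ± 1.75 to 42.8 ± 2.23 CPM (log2 fold change 0.74, edgeR adjusted p = 2.31e-06). CD46, the membrane cofactor that works beside CD55, rose from 118 ± 2.05 to 136 ± 5.65 CPM, below the fold threshold (log2 fold change 0.21, edgeR adjusted p = 0.00324). CD46 is also the nearest tested gene after CD55 on chromosome 1. Of 33 listed genes that build or attach the GPI anchor, 30 had a row and the only call was DPM2, a subunit that regulates dolichol-phosphate-mannose synthesis, from 50.9 ± 7.57 to 76.2 ± 7.91 CPM (log2 fold change 0.58, edgeR adjusted p = 0.000229). Without control library 1 or overexpressing library 1 the DPM2 value was 0.48 or 0.50, below the fold threshold. No GPI anchor gene was called lower by edgeR, limma-voom or DESeq2. By the adjusted p alone 8 of these rose and 9 fell (9 and 10 at an unadjusted p under 0.05), and the median of -0.03 became 0.03 with library size in place of TMM factors.

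LAMP1 and LAMP2 form most of the glycoprotein coat inside the lysosomal membrane, and a small share of each reaches the cell surface. LAMP1 (Entrez 3916, chr13:113297239-113323672, plus strand) was at 218, 221 and 227 CPM in controls and at 272, 269 and 274 CPM with overexpression. The groups were tight and did not overlap, with means of 222 ± 4.76 and 272 ± 2.3 CPM (SD, n = 3) and a 1.23-fold rise (95% confidence interval 1.15 to 1.31, log2 fold change 0.29, edgeR adjusted p = 7.49e-05) below the fold threshold. LAMP2 (Entrez 3920, chrX:120426148-120469365, minus strand), which also serves chaperone-mediated autophagy through its LAMP-2A form, was at 242, 239 and 238 CPM in controls and at 239, 268 and 254 CPM with overexpression. Its groups overlapped because overexpressing library 1 lay within the controls, and the fold of 1.06 had a 95% confidence interval of 0.982 to 1.14 (log2 fold change 0.08, edgeR adjusted p = 0.176). Without that library the log2 fold change was 0.12 and the edgeR adjusted p 0.0352. Gene counts do not separate the LAMP2 tail forms. The LAMP1 to LAMP2 ratio was 0.901, 0.923 and 0.952 in controls and 1.14, 1.0 and 1.08 with overexpression.

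Of 27 listed genes of the lysosomal membrane 25 had a row, 3 were called higher and none lower, and by the adjusted p alone 13 rose and 4 fell, with a median log2 fold change of 0.19. At an unadjusted p under 0.05, 5 were lower in edgeR, 5 in limma-voom and 3 in DESeq2, all short of the fold threshold. CLCN7, the lysosomal chloride and proton exchanger, rose from 15.1 ± 1.09 to 28.7 ± 2.53 CPM (log2 fold change 0.92, edgeR adjusted p = 2.11e-06). LAMP3, an inducible relative of LAMP1, rose from 19.4 ± 0.862 to 31.6 ± 2.32 CPM (log2 fold change 0.70, edgeR adjusted p = 8.44e-06), and TMEM192 from 20.3 ± 1.33 to 30.9 ± 1.14 CPM (log2 fold change 0.61, edgeR adjusted p = 1.79e-05). Without control library 3 the TMEM192 log2 fold change was 0.57, just below the fold threshold.

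BSG and ALCAM belong to the immunoglobulin superfamily. BSG (Entrez 682, chr19:571277-583494, plus strand) encodes basigin, also called CD147 or EMMPRIN, which escorts lactate transporters to the surface and induces matrix metalloproteinases. It was at 416, 431 and 452 CPM in controls and at 605, 529 and 521 CPM with overexpression. No library overlapped, overexpressing library 1 was the highest, and the 1.27-fold rise (95% confidence interval 1.17 to 1.39, log2 fold change 0.35, SE 0.06, edgeR adjusted p = 0.000212) was below the fold threshold. Without that library the log2 fold change was 0.28 (edgeR adjusted p = 6.02e-05). BSG-AS1 overlaps BSG on the opposite strand. ALCAM (Entrez 214, chr3:105366909-105576900, plus strand), or CD166, binds itself and CD6 and has been studied in prostate cancer metastasis. It was at 283, 285 and 259 CPM in controls and at 254, 278 and 274 CPM with overexpression, and its overlapping groups gave a fold of 0.975 with a 95% confidence interval of 0.9 to 1.06 (log2 fold change -0.04, edgeR adjusted p = 0.577). The BSG to ALCAM ratio was 1.47, 1.51 and 1.75 in controls and 2.39, 1.9 and 1.9 with overexpression.

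The partners of basigin moved in both directions. Of 18 listed partners and targets 16 had a row, 1 was called higher and 3 lower, with a median log2 fold change of 0.03, and by the adjusted p alone 7 rose and 6 fell. EMB, which encodes embigin, a relative of basigin that also escorts lactate transporters, had 298, 268 and 294 counts in controls and 0 in every overexpressing library, which is at least 101-fold lower against a floor of 3 counts per library. SLC16A3, the lactate exporter MCT4 that needs basigin to reach the surface, fell from 408 ± 18.4 to 212 ± 13.6 CPM (log2 fold change -0.95, edgeR adjusted p = 1.19e-08). SLC16A1, the transporter MCT1, fell from 174 ± 5.9 to 158 ± 3.29 CPM (log2 fold change -0.14, edgeR adjusted p = 0.0286), and the basigin relative NPTN rose from 132 ± 4.38 to 145 ± 3.73 CPM (log2 fold change 0.14, edgeR adjusted p = 0.0251), both below the fold threshold. When the fit blocked on replicate number, the edgeR adjusted p was 0.0947 for SLC16A1 and 0.0868 for NPTN, and it also missed the threshold for SLC16A1 without control library 1 or 2 or overexpressing library 2 or 3 and for NPTN without control library 2 or overexpressing library 2. For SLC16A1 the adjusted p was also 0.0529 with DESeq2, and edgeR with library size alone gave a log2 fold change of -0.08 (adjusted p = 0.185). MMP1, an interstitial collagenase, had the smallest called change, from 34.9 ± 2.71 to 22.9 ± 1.03 CPM (log2 fold change -0.61, edgeR adjusted p = 2.43e-05), and was -0.55 without control library 1, -0.55 with library size alone and -0.57 without overexpressing library 3. The higher call, named after its values were seen, was SLC7A5, the amino acid transporter LAT1, which rose from 275 ± 17.1 to 457 ± 30 CPM (log2 fold change 0.73, edgeR adjusted p = 3.01e-07). Its heavy chain SLC3A2, also named after its values were seen, rose from 195 ± 12.2 to 269 ± 13.6 CPM, below the fold threshold (log2 fold change 0.46, edgeR adjusted p = 1.45e-05).

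Of 31 listed adhesion genes of the immunoglobulin superfamily 18 had a row, 1 was called higher and 4 lower, with a median log2 fold change of -0.25. PTGFRN, a tetraspanin-associated protein, fell from 12.7 ± 0.644 to 1.08 ± 0.259 CPM (log2 fold change -3.56, edgeR adjusted p = 1.54e-09). ICAM1, the ligand of leukocyte integrins, rose from 32.8 ± 0.856 to 125 ± 11 CPM (log2 fold change 1.93, edgeR adjusted p = 1.75e-10). BCAM, the Lutheran laminin receptor, had the smallest called change, from 129 ± 8.43 to 74.2 ± 5.52 CPM (log2 fold change -0.79, edgeR adjusted p = 4.77e-07). Over all partner lists, with each gene taken once, 135 of 199 listed genes had a row, 11 were called higher and 15 lower, and the median log2 fold change was -0.02.

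**Figure D3:**
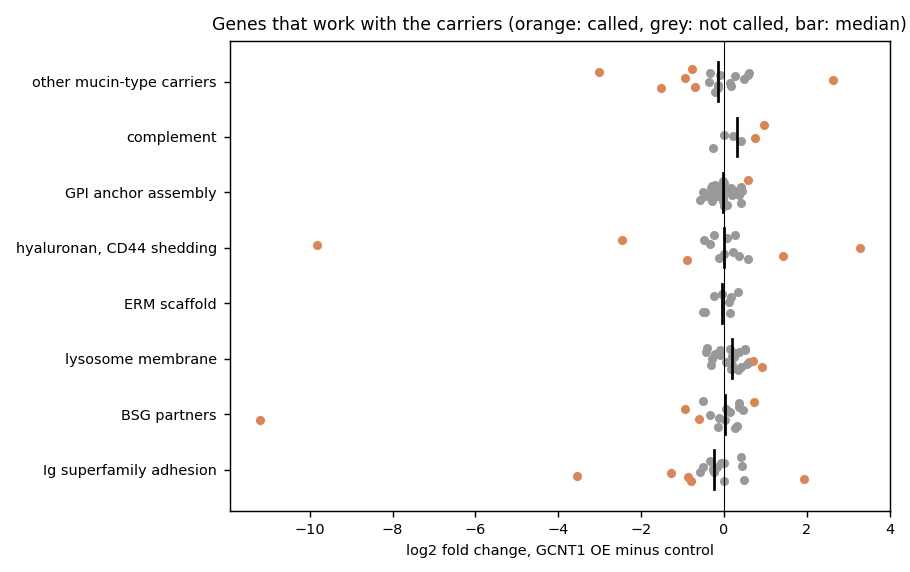
Log2 fold change, GCNT1 overexpressing minus control (horizontal axis), of each tested gene of the 8 partner lists (rows), each point a gene. The points of CEMIP and EMB rest on counts at or near 0 and their position depends on the prior count, and the lysosomal membrane list spans 0 with a median of 0.19 while the immunoglobulin superfamily list has a median of -0.25.

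**Figure D4:**
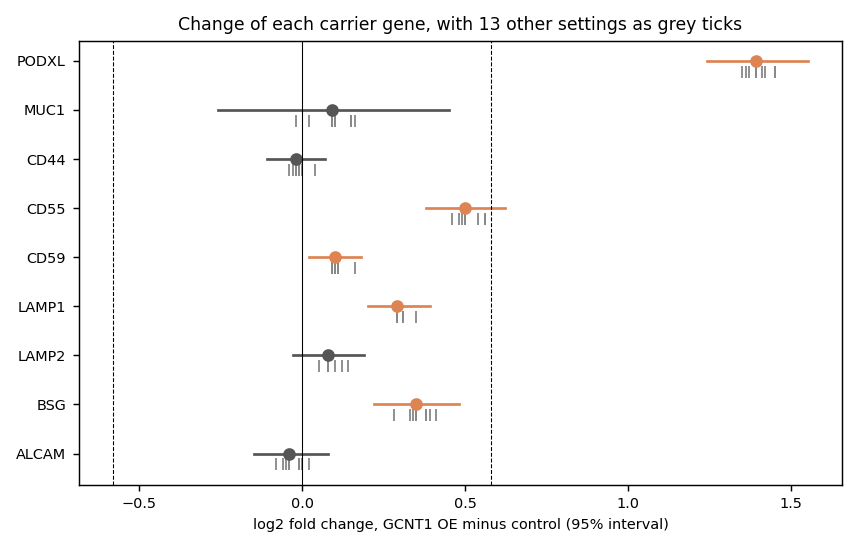
Log2 fold change of the 9 carriers, GCNT1 overexpressing minus control (horizontal axis), as points with 95% confidence intervals from edgeR, grey ticks for the 13 alternative settings and dashed lines at ±0.58. PODXL at 1.39 is beyond the dashed line, CD55 at 0.50, BSG at 0.35 and LAMP1 at 0.29 lie between 0 and it, and CD44, ALCAM, MUC1 and LAMP2 have intervals that include 0.

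The carriers of related function were compared as ratios within a library, since a ratio does not depend on the scaling. The 4 pairs were picked after their values were seen. The log2 difference of the ratio was 1.29 for PODXL to MUC1, 0.40 for CD55 to CD59, 0.38 for BSG to ALCAM and 0.21 for LAMP1 to LAMP2, and in each pair all 3 overexpressing libraries were above all 3 controls. Since the pairs were chosen with these values known, no test of them is given.

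Levels of different genes were compared per kilobase of canonical transcript. In controls the order was BSG (223 CPM per kb), CD59 (192), CD55 (187), CD44 (92.5), LAMP1 (82.1), ALCAM (58.6), LAMP2 (36.7), PODXL (4.37) and MUC1 (2.24), and of neighbours in this order only CD59 and CD55 overlapped between libraries. With overexpression it was BSG (283 CPM per kb), CD55 (265), CD59 (206), LAMP1 (101), CD44 (91.2), ALCAM (57.1), LAMP2 (38.8), PODXL (11.5) and MUC1 (2.38), and only BSG and CD55 overlapped. CD55 passed CD59 and LAMP1 passed CD44 in this order, which rests on a single canonical transcript length per gene. In CPM with overexpression, CD59 (1557) stayed above CD55 (687) and CD44 (495) above LAMP1 (272). Which transcripts PC3 cells use was not measured. Among the 11736 genes with a transcript length, PODXL moved from percentile 28.9 to 53.0, whereas BSG, CD55 and CD59 were above percentile 97 in both groups and MUC1 stayed at 18.2 and 19.3. The MUC1 repeat region is shortened in the genome sequence, which makes its level per kilobase uncertain.

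Each carrier was also set beside the 50 tested genes nearest to it on its chromosome. For PODXL the median log2 fold change of the neighbours was 0.15, and PODXL at 1.39 was above 49 of the 50. The neighbours of CD55 had a median of 0.23 with quartiles of -0.16 and 0.62, and 15 of the 50 were called higher and 3 lower, beside 8.28% and 11.1% of all genes. The CD55 log2 fold change of 0.50 was 0.28 above that median, and 16 of the 50 neighbours were higher still. LAMP1 was 0.17 above a neighbour median of 0.13 (16 of 50 higher) and BSG was 0.28 above a median of 0.07 (7 of 50 higher). ALCAM at -0.04 was 0.26 below a neighbour median of 0.23, and LAMP2 was 0.06 below one of 0.14. The neighbour medians of MUC1, CD44 and CD59 were -0.04, -0.02 and -0.02, and CD44 and CD59 share part of their neighbours on the short arm of chromosome 11. DNA copy number was not measured, and its part in these values was not tested.

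**Figure D5:**
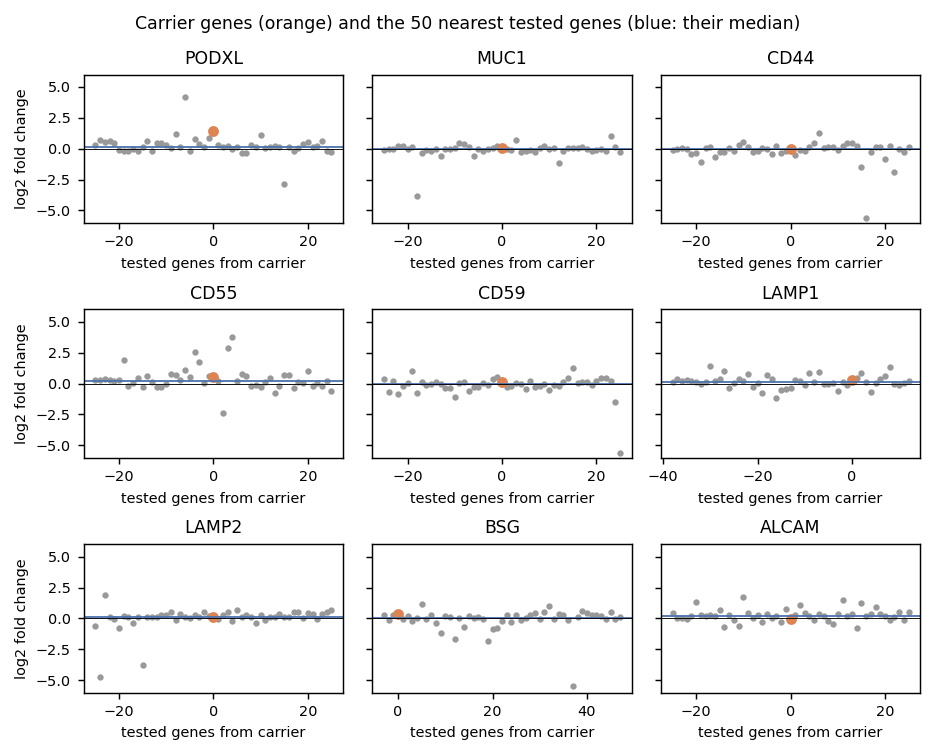
Log2 fold change, GCNT1 overexpressing minus control (vertical axis), of the 50 tested genes nearest to each carrier (small points), with their median and the carrier itself marked. PODXL stands above all but 1 of its neighbours, and CD55, LAMP1 and LAMP2 lie within the spread of theirs.

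Promoters of LAMP1, CD55 and BSG, which rose most among the carriers with an entry in the promoter set used here, are shown for the motifs they hold. This set of RefSeq start sites on GRCh38.p14 covered 7 of the 9 genes and had no entry for PODXL or LAMP2, a limit of the set. A window from 250 bases before to 50 bases after each start was searched on both strands. The motifs were the GC box GGGCGG, the TATA box with the letters TATAAA, the CCAAT box, an E-box with the letters CACGTG and another with CAGGTG. None of these letters overlap in the windows shown. Each line below gives the 250 bases before and 30 bases after a start, all on the plus strand, with these motifs in capitals.
LAMP1: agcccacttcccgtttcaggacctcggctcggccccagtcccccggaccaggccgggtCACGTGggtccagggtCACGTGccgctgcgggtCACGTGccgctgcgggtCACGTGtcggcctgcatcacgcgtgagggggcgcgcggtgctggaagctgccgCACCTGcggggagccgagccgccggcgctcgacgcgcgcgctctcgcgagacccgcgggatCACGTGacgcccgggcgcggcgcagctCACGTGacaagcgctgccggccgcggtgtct
CD55: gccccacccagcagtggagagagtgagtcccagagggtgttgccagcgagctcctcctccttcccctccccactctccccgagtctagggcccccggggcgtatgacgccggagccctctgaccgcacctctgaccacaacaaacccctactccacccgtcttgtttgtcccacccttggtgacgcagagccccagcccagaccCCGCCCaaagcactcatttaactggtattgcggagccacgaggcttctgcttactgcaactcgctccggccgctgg
BSG: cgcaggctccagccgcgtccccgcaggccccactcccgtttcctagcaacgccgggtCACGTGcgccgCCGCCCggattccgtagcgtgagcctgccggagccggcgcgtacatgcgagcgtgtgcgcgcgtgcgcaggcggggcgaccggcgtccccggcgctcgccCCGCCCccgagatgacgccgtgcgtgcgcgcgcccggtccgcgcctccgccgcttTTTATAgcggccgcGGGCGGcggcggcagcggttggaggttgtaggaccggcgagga
The LAMP1 window (chr13:113296989-113297268) held 6 copies of CACGTG and 1 copy of the other E-box. At least 1 copy of CACGTG occurs in 7.26% of 35116 human promoter windows, 233 windows held at least 2 copies, 5 at least 4, and 1, that of LAMP1 itself, held 6. The CD55 window (chr1:207321428-207321707) held 1 GC box and none of the others. This BSG window (chr19:572346-572625), the second of its RefSeq starts, held 3 GC boxes, 1 TATA box and 1 copy of CACGTG. The other BSG window, at the first start, held 1 copy of CAGGTG and none of the rest. Of the 4 CD59 windows, which are not shown and partly overlap, 2 held 2 GC boxes each, 3 held the CCAAT box and 1 held CAGGTG. The carriers that did not pass the adjusted p held such motifs too, in windows not shown. Both MUC1 windows, which overlap, held 4 GC boxes, some sharing letters, 1 TATA box and 2 copies of CAGGTG. The CD44 window held 2 GC boxes, and the ALCAM window held 1 GC box and 1 copy of CAGGTG. The GC box occurs in 45.0% of all windows, the TATA box in 11.5%, the CCAAT box in 34.6% and the other E-box in 20.6%. The matches describe these letters only.

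The genes whose levels over the 6 libraries followed PODXL most closely, by the root mean square difference of log2(CPM + 0.5) centred on each gene's mean, were IL15RA (0.0474), FGFRL1 (0.0501) and DDX60L (0.0634). IL15RA, the interleukin 15 receptor alpha chain, rose from 1.79 ± 0.14 to 5.24 ± 0.333 CPM, FGFRL1, a fibroblast growth factor receptor without a kinase domain, from 10.2 ± 0.751 to 29.1 ± 1.78 CPM, and DDX60L, an interferon-inducible helicase, from 11.6 ± 1.24 to 30.3 ± 1.15 CPM (SD, n = 3). Likeness over 6 libraries in 2 groups is a description of these libraries only.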

How the data were processed

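The authors prepared stranded mRNA libraries, used Cutadapt to trim single reads, HISAT2 to align them to hg38 and featureCounts to count them per gene, and deposited raw read counts with no normalization. The annotation, the strand setting of the counting and the filter on low counts are not given in the sources used here. Every gene had at least 1.01 CPM in its third-highest library. The authors tested with limma-voom.

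Groups were taken from the labels. All 6 count columns were analysed with edgeR 4.0.16 in R 4.3.3: filterByExpr, which kept all 12703 genes, TMM factors, a quasi-likelihood test between groups, and adjustment over all genes by Benjamini-Hochberg. CPM values use the TMM factors. Depth was 11392213 to 13825704 counts per library, and floors cover counting error only. Libraries of a group differed by more than sampling noise (chi-square per degree of freedom 1.65 to 5.61). The methods call the replicates separate lines, and how these were derived is not given, so p-values measure the spread between these libraries.

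Alternatives were limma-voom 3.58.1, DESeq2 1.42.0, scaling by library size alone or by RLE factors, no filter, at least 10 counts in every library, the replicate block and each library left out. The 9 carriers are named in full. From each partner list the 2 called genes with the largest absolute change, the called gene with the smallest and direct partners of a carrier are named. The carriers, lists and tests were chosen with earlier results of these data known. Part of what the naming rule and the marker lists give is not reported. Sequences came from GENCODE 44 and RefSeq.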

Additional observations from a re-analysis of the deposited data

How the results depend on the processing

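PODXL, CD55, LAMP1 and BSG kept their direction and their side of the adjusted p under all 13 alternatives, with log2 fold changes of 1.35 to 1.45, 0.46 to 0.56, 0.29 to 0.35 and 0.28 to 0.41. CD59 kept its direction, but its adjusted p was 0.0702 with DESeq2 (log2 fold change 0.10) and 0.128 with the replicate block (0.10), and with a library left out it passed only without overexpressing library 1 (0.0282), over log2 fold changes of 0.09 to 0.11. With library size alone, a scaling that raises the median of all genes by 0.06, CD44 became 0.04 and ALCAM 0.02, both not past the threshold, and LAMP2 became 0.14 and passed (adjusted p = 0.0306, edgeR). With a library left out, ALCAM ran from -0.08 to 0.00, MUC1 from -0.02 to 0.16 and LAMP2 from 0.05 to 0.12, where LAMP2 passed only without overexpressing library 1 (edgeR adjusted p = 0.0352). PODXL was the only carrier called in every setting. At a minimum of 10 counts in every library, 7 partner genes were called higher in place of 11 and 11 lower in place of 15, since the filter removed genes with low counts, CEMIP and EMB among them. All genes called ranged from 1980 to 2513. Same-numbered libraries correlated at -0.273, -0.0024 and -0.109 in their deviations from the group means, so the numbers were not taken to pair them. With the replicate block 26 partner genes and 2423 genes in all were called, and CD59 was the only carrier whose call by the adjusted p changed. Depth limits MUC1, with 42 to 65 counts per library.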
